A study of Solanum lycopersicum with 8 samples.

Results

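Transcripts of 5 genes for subunits of the protein kinases TOR and SnRK1 were followed in tomato seedlings, out of 34688 genes in the deposited table. They were taken by identifier, and the rule names no threshold on their values, although results of these data were known when it was written. On the TOR side they were TOR (Solyc01g106770) and RAPTOR1 (Solyc10g076260). On the SnRK1 side they were the catalytic α subunits Solyc02g067030 and Solyc03g115700 and the regulatory subunit SNF4 (Solyc06g068160). The deposited table holds identifiers only. TOR and RAPTOR1 are named in the study's list of differentially expressed genes, which was drawn from these same libraries, so that their direction here is not independent of that list. The SnRK1 names came with the choice of the genes and were not checked against an annotation.

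The Torin2-treated seedlings were wild-type (WT) plants of the dwarf cultivar Micro-Tom, 10 days old, on medium with 5 μM Torin2, an inhibitor that blocks the ATP site of the TOR kinase. The mock-treated seedlings were of the same genotype and age, and their medium held the solvent, DMSO, at 0.1%. RNA from whole plants was sequenced in 4 libraries per treatment, described as biological replicates. According to the study's text the treatment lasted hours, while the labels give no time and no number of seedlings per library. The label of whole plants was not checked against tissue markers, since the table gives no gene names. The question was how transcripts of the inhibited kinase complex and of its antagonist stood after inhibition. The kinase activity itself is a property of the proteins and was not measured in these libraries. In whole plants, a lower share of cells that express a gene and less RNA per cell cannot be told apart.

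TOR is a large serine/threonine kinase that promotes translation, ribosome formation and growth when nutrients and energy are ample, and it holds back autophagy. RAPTOR is the scaffold of its complex and brings substrates to the kinase. SnRK1, the plant relative of yeast SNF1 and animal AMPK, acts in the other direction: it is active when energy is low and promotes catabolism. Its α subunits carry the kinase domain, and subunits related to yeast SNF4 belong to the regulatory part. In Arabidopsis and other plants SnRK1 phosphorylates RAPTOR and restrains TOR, so that both kinases are often described as a balance between growth and saving.

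The primers below are shown because the study's primer table lists them under the identifier measured here as TOR. They were not matched to a transcript sequence. According to that table they amplify the carboxy-terminal part of SlTOR for yeast interaction tests, and the cloning tails are left out. Capitals mark the start codon at the 5′ end of the carboxy-terminal fragment and, in its reverse primer, the complement of the stop codon.
SlTOR-C forward: ATGcgtctgctgggtgctctagcggag
SlTOR-C reverse: TTAcccaacataattttggcaaagattttc

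Values are FPKM, the fragments of a gene per kilobase of its length, scaled to the depth of the library, as the authors deposited them. Whole fragments could be recovered from the values, which gave a depth of 36989258 to 39868132 fragments per library. The libraries of both treatments parted into 2 kinds along the strongest component of their deviations from the treatment means, which held 53.6% of the variance. Torin2 replicates 2 and 4 and mock replicates 1 and 2 formed the first kind. Torin2 replicates 1 and 3 and mock replicates 3 and 4 formed the second. In the first kind the 10 most abundant genes took 5.63% to 6.91% of the fragments, and in the second kind 8.59% to 12.0%. The labels name no batch, and each kind holds 2 libraries of each treatment. The kinds were drawn from these same values. Since the deviations were taken from the treatment means, libraries of both treatments had to fall in both kinds.

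TOR transcripts were 2.23-fold higher in Torin2-treated than in mock-treated seedlings, and TOR was the only one of the 5 genes past both cut-offs. These were an adjusted p below 0.05 and a log2 fold change beyond 1 in size. RAPTOR1 was 2.64-fold higher in mean FPKM, at a low level, and missed the adjusted p. Both α subunits had higher means under Torin2 with overlapping libraries, and the means of SNF4 were nearly equal. Of the 5 genes, 1 was called, against 8.32% of the 22330 genes tested called in either direction and 5.31% called higher. All 5 passed the filter on low values.

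The count depended on how the values were treated. With limma-voom on the recovered fragments, with library sizes set by median-of-ratios, 1 of the 5 genes was called, against 8.34% of all genes tested. The log2 fold change of TOR was 1.02 there and 0.98 by limma after median-of-ratios scaling, on either side of the cut-off. With the kind of library as a covariate, TOR and RAPTOR1 were called, against 10.2% of all genes. In that fit 4 of the 5 genes had an adjusted p under 0.05 at any fold change, against 38.2%. Because the kind was drawn from these same values, the adjusted p-values of that fit can be too small. None was called by limma after median-of-ratios scaling, against 7.97% of all genes, although 3 had an adjusted p under 0.05, against 22.1%. None was called after removal of the length trend, against 7.55%, where 2 had an adjusted p under 0.05, against 25.7%. In both of these fits 3 of the 5 genes had an unadjusted p under 0.05, against 35.9% of all genes after median-of-ratios scaling and 38.2% after removal of the length trend. On the deposited scale an adjusted p under 0.05 was reached by 1 of the 5 genes and by 12.6% of all genes, and with limma-voom by 2 of the 5 and by 23.5%.

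TOR was measured at 3.90, 4.79, 3.25 and 4.84 FPKM in Torin2 replicates 1 to 4, against 2.56, 1.99, 1.44 and 1.51 FPKM in mock replicates 1 to 4. Every Torin2 library lay above every mock library, and in both treatments the libraries of the first kind were the higher ones. The means were 4.19 ± 0.762 FPKM under Torin2 and 1.88 ± 0.517 FPKM in mock-treated seedlings (SD, n = 4 each). The log2 fold change on log2(FPKM + 0.1) was 1.14 with a standard error of 0.29 (limma, Benjamini-Hochberg adjusted p = 0.0180). Exact permutation of the treatments (two-sided, 70 assignments of the libraries) gave p = 0.0286, the smallest p this design allows. Of all genes tested, 19.2% had no overlap between the treatments, and 11.4% had none with Torin2 on top. The values rest on 957 to 1493 fragments per Torin2 library and 458 to 781 per mock library.

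The difference in TOR was present in both kinds of libraries, with a log2 difference of 1.06 in the first and 1.22 in the second. The median log2 fold change of the genes tested was 0.16 on the deposited scale, and TOR stood 0.97 above it. Median-of-ratios scaling brought the median of all genes to 0.01 and placed the change of TOR at 0.98 (limma adjusted p = 0.00475), just under the fold change cut-off. The same scaling turned the split over all genes, with 1186 called higher and 671 called lower on the deposited scale, to 767 and 1012. With a single library left out, TOR stayed between 1.03 and 1.29, and its adjusted p passed the threshold in 5 of 8 fits. It missed it without Torin2 replicate 4 (0.0610), without mock replicate 3 (0.0509) and without mock replicate 4 (0.0690).

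**Figure D1:**
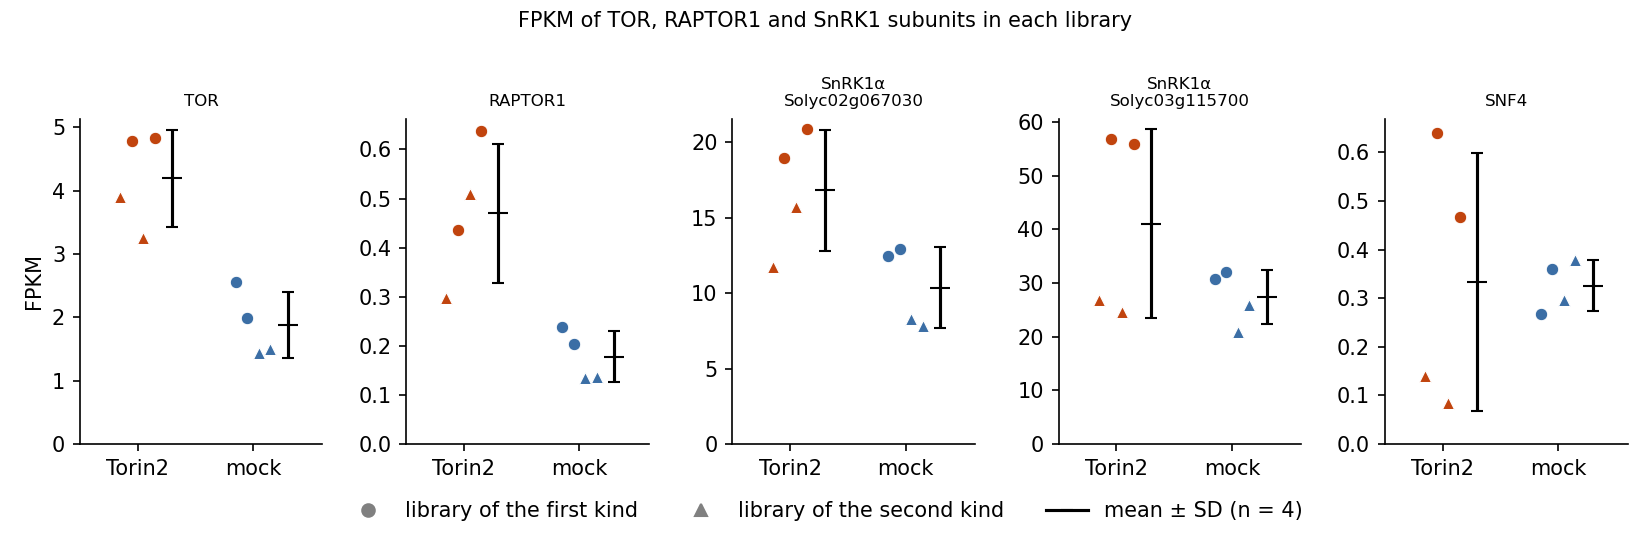
FPKM of the 5 genes in each library, Torin2 to the left of mock in every panel, with circles for the first and triangles for the second kind of libraries and bars for the mean ± SD (n = 4). TOR and RAPTOR1 show no overlap between the treatments, with TOR at 3.25 to 4.84 FPKM under Torin2 and 1.44 to 2.56 FPKM in mock-treated seedlings, while the other 3 genes overlap.

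The TOR gene model is 7952 bp long, longer than 99.9% of the genes tested. Over all genes tested, the difference between the treatments moved with gene length. The 148 genes of at least 6000 bp had a median log2 fold change of 0.66, with quartiles of 0.41 and 0.86, and 15.5% of them were called higher. Of these long genes, 6.76% had a higher log2 fold change than TOR. Once each library was freed of its length trend, the median of the long genes was -0.04, and the log2 fold change of TOR was 0.42 (limma adjusted p = 0.0526), no longer past either cut-off. The part of this length trend in the higher TOR values was not tested.

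**Figure D2:**
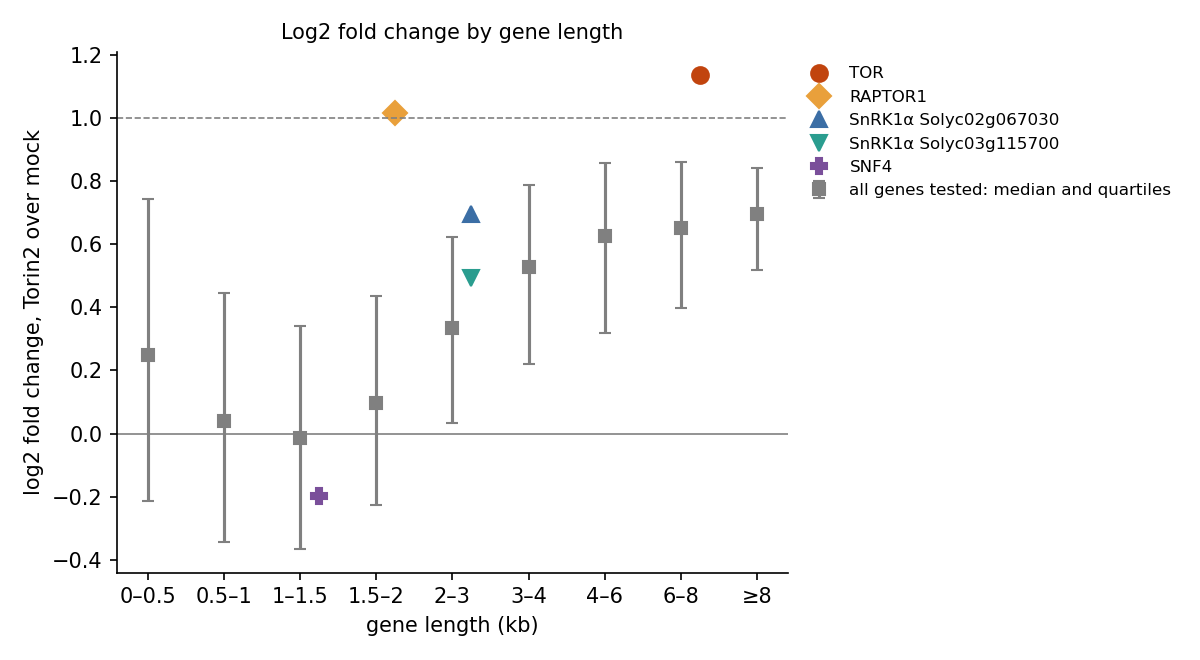
Log2 fold change (Torin2 over mock) against gene length in kilobases, with gray squares for the median and bars for the quartiles of all genes tested in each length class, coloured symbols for the 5 genes and a dashed line at the fold change cut-off. TOR, at 1.14, RAPTOR1, at 1.02, and the SnRK1 α gene Solyc02g067030, at 0.70, lie above the upper quartile of their classes. Solyc03g115700 and SNF4 lie under it, and the medians of the classes reach 0.70 for the longest genes.

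RAPTOR1 encodes the scaffold of the TOR complex, and its transcripts were scarce. It was measured at 0.298, 0.436, 0.509 and 0.637 FPKM in Torin2 replicates 1 to 4, against 0.238, 0.205, 0.135 and 0.136 FPKM in mock replicates 1 to 4. No mock library reached the lowest Torin2 library, and the lowest Torin2 and the highest mock value were close. Behind these values are 22, 31, 35 and 46 fragments in the Torin2 libraries, against 17, 15, 10 and 10 in the mock libraries. For the closest pair, the exact 95% Poisson intervals were 0.187 to 0.452 FPKM for Torin2 replicate 1 and 0.139 to 0.381 FPKM for mock replicate 1, so that these libraries were not separated beyond counting error. Such intervals hold counting error alone, because the reads carried no molecular identifiers and need not come from separate molecules.

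The means of RAPTOR1 were 0.470 ± 0.141 FPKM under Torin2 and 0.178 ± 0.0516 FPKM in mock-treated seedlings (SD, n = 4 each). The log2 fold change was 1.02 with a standard error of 0.38 (limma adjusted p = 0.0910; unadjusted p = 0.0171), so the gene was not called. The pseudocount of 0.1 FPKM is large beside these values and lowers the log2 fold change, which was 1.34 with a pseudocount of 0.01 FPKM (adjusted p = 0.112). The exact permutation test gave p = 0.0286. Libraries of the first kind differed by 0.97 and those of the second by 1.07 on the log2 scale. RAPTOR1 passed both cut-offs with the kind of library as a covariate (adjusted p = 0.0223), with no filter on low values (0.0456) and with no trend in the variance (0.0301). The kind was drawn from these same values, so that the adjusted p with this covariate can be too small. Its gene model is 1860 bp long, and the removal of the length trend left its log2 fold change at 0.86 (adjusted p = 0.0463). Whether this model spans the whole transcript was not checked, so that its low level and its ratio to TOR describe the model alone.

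The 2 genes for the catalytic α subunit of SnRK1 were the most abundant of the 5. Solyc02g067030 was measured at 11.7, 19.0, 15.7 and 20.9 FPKM in Torin2 replicates 1 to 4, against 12.4, 12.9, 8.29 and 7.81 FPKM in mock replicates 1 to 4. Torin2 replicate 1 lay below mock replicates 1 and 2, and the other 3 Torin2 libraries lay above every mock library. The means were 16.8 ± 4.03 FPKM under Torin2 and 10.4 ± 2.69 FPKM in mock-treated seedlings (SD, n = 4 each), a ratio of 1.62. The log2 fold change was 0.70 with a standard error of 0.26 (limma adjusted p = 0.0915), and the exact permutation test gave p = 0.0857. The log2 difference was 0.65 among libraries of the first kind and 0.75 among those of the second. The adjusted p was under 0.05 in 6 of 22 alternative fits, among them the one after median-of-ratios scaling (0.0398). Another was the fit with the kind of library as a covariate (0.00221), a covariate drawn from these same values. The log2 fold change of Solyc02g067030 was under the cut-off in all 6 fits.

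The second α gene, Solyc03g115700, was measured at 26.9, 56.8, 24.7 and 55.8 FPKM in Torin2 replicates 1 to 4, against 30.7, 32.0, 20.9 and 25.9 FPKM in mock replicates 1 to 4. The Torin2 libraries fell into a high pair, of the first kind, and a low pair, of the second kind, and the low pair lay among the mock libraries. The means were 41.1 ± 17.7 FPKM under Torin2 and 27.4 ± 5.07 FPKM in mock-treated seedlings (SD, n = 4 each). The log2 fold change was 0.49 with a standard error of 0.29 (limma adjusted p = 0.275), and the exact permutation test gave p = 0.286. The mean FPKM was 1.79-fold higher under Torin2 in libraries of the first kind and 1.10-fold higher in those of the second. Whether the kinds differ in this was not tested. Counting error was small for both α genes, with at least 1017 fragments per Torin2 library and at least 677 per mock library.

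SNF4, related to the activating subunit of the yeast kinase, was the other scarce transcript. It was measured at 0.139, 0.641, 0.0854 and 0.468 FPKM in Torin2 replicates 1 to 4, against 0.268, 0.361, 0.297 and 0.379 FPKM in mock replicates 1 to 4. The Torin2 libraries lay on both sides of the mock libraries, those of the first kind above and those of the second kind below. These values rest on 7, 31, 4 and 23 fragments in the Torin2 libraries and 13, 18, 15 and 19 in the mock libraries, with a sum of 65 in both treatments. The 95% Poisson intervals were 0.0561 to 0.287 and 0.0233 to 0.219 FPKM in Torin2 replicates 1 and 3. In Torin2 replicates 2 and 4 they were 0.435 to 0.909 and 0.297 to 0.702 FPKM, so that the pairs differed by more than counting error.

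The means of SNF4 were 0.333 ± 0.266 FPKM under Torin2 and 0.326 ± 0.0525 FPKM in mock-treated seedlings (SD, n = 4 each). The log2 fold change was -0.20 with a standard error of 0.47 (limma adjusted p = 0.820), of the other sign than the difference of the means. The exact permutation test gave p = 0.686. The log2 difference was 0.66 in the first kind of libraries and -1.05 in the second, and the difference between the kinds was not tested. The sign of the fitted change also turned when Torin2 replicate 1 (0.012) or Torin2 replicate 3 (0.14) was left out. A difference in SNF4 was not detected.

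**Figure D3:**
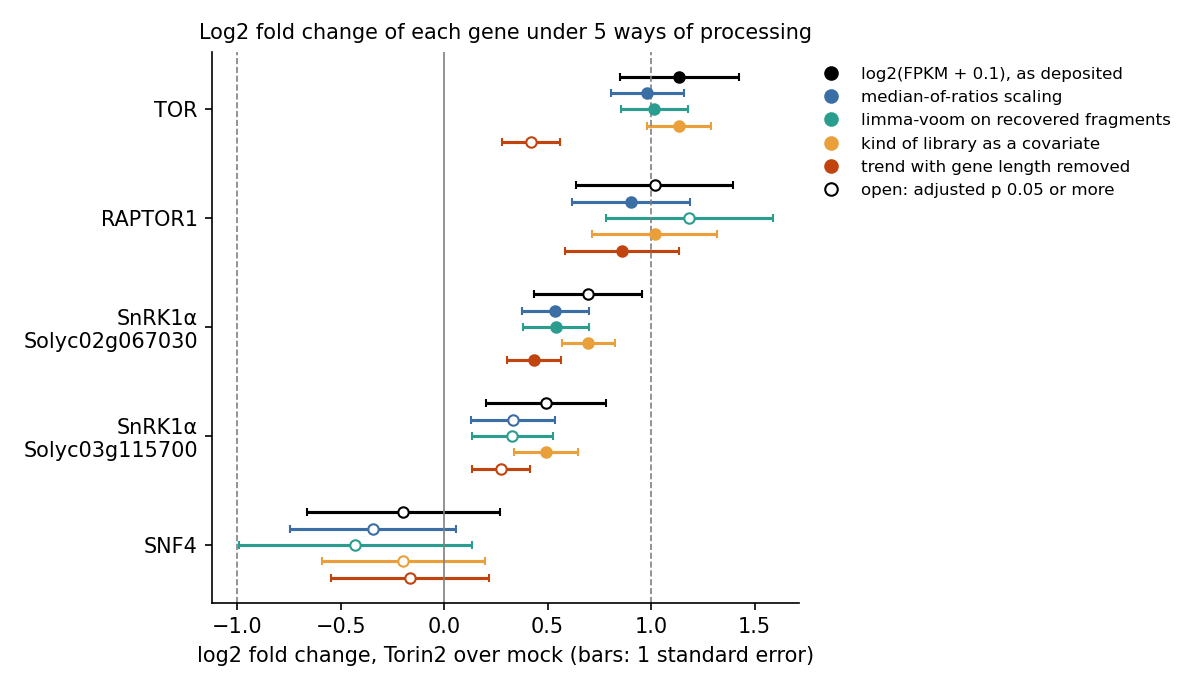
Log2 fold change (Torin2 over mock) of the 5 genes under 5 ways of processing, with bars of 1 standard error, dashed lines at the fold change cut-offs and filled symbols for an adjusted p under 0.05. TOR moves from 1.14 on the deposited scale to 0.42 once the length trend is removed, the α subunits stay under 1 throughout, and SNF4 lies between -0.43 and -0.16 with the widest bars.

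Per length, the order of the levels was the same in all 8 libraries for the 3 most abundant genes: Solyc03g115700 was above Solyc02g067030, which was above TOR. TOR stood at 0.252 of the level of Solyc02g067030 in the Torin2 libraries and at 0.181 in the mock libraries (geometric means). TOR was also above RAPTOR1 and SNF4 in all 8 libraries. RAPTOR1 and SNF4 changed places: RAPTOR1 was the higher one in 3 of 4 Torin2 libraries and in 0 of 4 mock libraries. In the Torin2 libraries their levels overlapped, and in the mock libraries the highest RAPTOR1 value, 0.238 FPKM, was below the lowest SNF4 value, 0.268 FPKM, with overlapping counting intervals. Among the 22330 genes tested, the mean level of TOR was at percentile 32.4, those of RAPTOR1 and SNF4 were at 7.25 and 7.38, and those of Solyc02g067030 and Solyc03g115700 at 65.5 and 82.2.

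Ratios within a library set the TOR complex against SnRK1 without the scaling of the library. TOR was at 10.1, 6.32, 8.05 and 6.30 FPKM per 100 FPKM of both α genes in Torin2 replicates 1 to 4, against 5.93, 4.43, 4.95 and 4.47 in mock replicates 1 to 4. Every Torin2 library was above every mock library, and the distance between the closest pair, Torin2 replicate 4 and mock replicate 1, was small. On the log2 scale the ratio was -3.73 ± 0.326 under Torin2 and -4.35 ± 0.195 in mock-treated seedlings (SD, n = 4 each), a difference of 0.62. The exact two-sided permutation test gave p = 0.0286, the smallest possible for 4 libraries against 4, or 0.114 after Benjamini-Hochberg adjustment over the 4 ratios computed. A single ratio at this smallest p could not have passed 0.05 after that adjustment. It was 0.30 in the first kind of libraries and 0.94 in the second, and the difference between the kinds was not tested. TOR is also far longer than both α genes (2190 bp for Solyc02g067030 and 2043 bp for Solyc03g115700), and the part of the length trend in this ratio was not tested.

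The ratio of RAPTOR1 to TOR was 7.65, 9.10, 15.6 and 13.2 FPKM per 100 FPKM of TOR in Torin2 replicates 1 to 4, against 9.31, 10.3, 9.33 and 9.0 in mock replicates 1 to 4. The Torin2 libraries lay on both sides of the mock libraries, which were close together. The log2 ratio was -3.19 ± 0.474 under Torin2 and -3.40 ± 0.0813 in mock-treated seedlings (SD, n = 4 each). Their difference of 0.21 was within the spread of the Torin2 libraries (exact permutation p = 0.4, also 0.4 after adjustment over the 4 ratios).

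Within SnRK1, SNF4 was at 0.361, 0.845, 0.211 and 0.610 FPKM per 100 FPKM of both α genes in Torin2 replicates 1 to 4, against 0.620, 0.802, 1.02 and 1.12 in mock replicates 1 to 4. The lowest libraries were Torin2 replicates 1 and 3, and the other 2 Torin2 libraries were at or near the mock range. The difference of the log2 ratios was -0.96, with -7.81 ± 0.877 under Torin2 and -6.85 ± 0.383 in mock-treated seedlings (SD, n = 4 each; exact permutation p = 0.114, adjusted over the 4 ratios 0.229). It was 0.03 in the first kind of libraries and -1.95 in the second. The share of Solyc02g067030 in the sum of both α genes was 30.4 ± 6.09% under Torin2 and 27.3 ± 2.76% in mock-treated seedlings (SD, n = 4 each; exact permutation p = 0.4, adjusted 0.4). This share differed by -2.66 percentage points in the first kind of libraries and by 8.84 in the second.

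**Figure D4:**
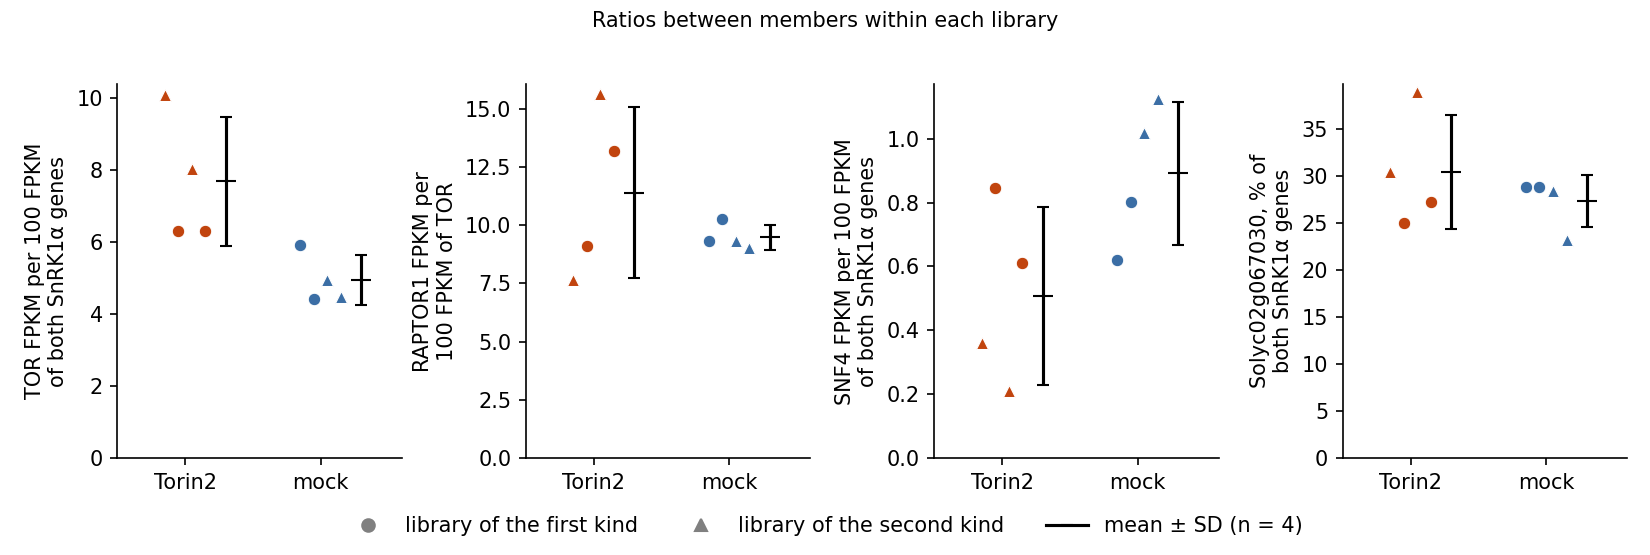
Ratios of FPKM within each library, Torin2 to the left of mock, with circles for the first and triangles for the second kind of libraries and bars for the mean ± SD (n = 4). Only the ratio of TOR to both α genes shows no overlap between the treatments among the 4 ratios, at 6.30 to 10.1 under Torin2 and 4.43 to 5.93 in mock-treated seedlings.

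The likeness of the profiles was described by the root-mean-square distance of the log2 values over the 8 libraries, each gene centred on its own mean. Among the 5 genes the closest pair was RAPTOR1 and Solyc02g067030, at 0.218, followed by TOR and RAPTOR1 at 0.261. SNF4 was farthest from RAPTOR1 and TOR, at 0.854 and 0.849. Among the 18545 other genes that averaged 1 FPKM or more, the profile nearest to that of TOR was Solyc04g072034, at 0.054. Next came Solyc07g005030, at 0.057, which the study's gene table names DCL4, a Dicer-like protein that processes small RNAs, and then Solyc02g092160, at 0.069. The 3 nearest genes were at 0.082 to 0.103 for RAPTOR1, 0.043 to 0.061 for Solyc02g067030, 0.061 to 0.074 for Solyc03g115700 and 0.200 to 0.217 for SNF4, and neither the table nor the study's list names them. All points share the same 8 libraries, so that the kinds of libraries also enter these distances.

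Around the kinases, 15 genes of TOR and SnRK1 signaling are described in the study's gene table. The study chose them on these samples as differentially expressed, so that their counts and directions are not independent evidence. On this list, 12 genes had a positive log2 fold change, of which 10 were called higher, against 5.31% of all genes tested. The other 3 had a negative one, of which 2 were called lower, against 3%. The median log2 fold change was 1.22, against 0.16 for all genes tested. With a single library left out, 6 to 12 of the listed genes were called, against 5.16% to 9.78% of all genes. There were 6 without mock replicate 4 (5.16% of all genes) and 7 without mock replicate 2 (6.99%). After removal of the length trend 9 were called, against 7.55%.

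On the TOR side, ATPK2 (Solyc03g095510), a kinase of the S6K family that TOR phosphorylates, was measured at 8.57, 12.8, 5.96 and 13.8 FPKM in Torin2 replicates 1 to 4, against 2.11, 2.50, 1.22 and 2.67 FPKM in mock replicates 1 to 4. The treatments did not overlap, and the log2 fold change was 2.20 (limma adjusted p = 0.000561). The transcript of RPS6A (Solyc08g006040), the ribosomal protein that S6 kinases phosphorylate, moved the other way: it was at 79.5 ± 27.0 FPKM under Torin2 and 159 ± 29.6 FPKM in mock-treated seedlings (SD, n = 4 each), with a log2 fold change of -1.04 (adjusted p = 0.0140). ATG13A, the autophagy regulator that TOR inhibits, rose as Solyc03g096790 by 1.26 and as Solyc06g072980 by 1.21 on the log2 scale (limma adjusted p = 0.0123 and 0.0126). After removal of the length trend Solyc03g096790 (0.954) and RPS6A (-0.998) fell just under the fold change cut-off. ATPK2 (1.98) and Solyc06g072980 (1.01) stayed past it. With quantile scaling Solyc06g072980 (0.977) and RPS6A (-0.980) were under it, while ATPK2 (2.00) and Solyc03g096790 (1.05) were past it. ATG1C (Solyc10g084930), the autophagy kinase that works with ATG13, had a log2 fold change of 1.09 with overlapping libraries (adjusted p = 0.0556) and was not called. SMG1 (Solyc01g109080), a kinase of the same PIKK family as TOR that takes part in RNA surveillance in animals, was higher by 1.18 on the log2 scale (adjusted p = 0.0385). Its gene model, of 11564 bp, is longer than that of TOR, and its log2 fold change was 0.40 after removal of the length trend (adjusted p = 0.173).

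On the SnRK1 side, trehalose 6-phosphate inhibits the kinase, so that the enzymes that make and remove it are listed with its regulators. TPS1 (Solyc02g071590), a trehalose-6-phosphate synthase, was at 0.852 ± 0.210 FPKM under Torin2 and 0.234 ± 0.0390 FPKM in mock-treated seedlings (SD, n = 4 each), with a log2 fold change of 1.49 (limma adjusted p = 0.0126). The phosphatases went apart: TPPF (Solyc06g060600) was lower by a log2 fold change of -1.05 (adjusted p = 0.0313), TPPJ (Solyc04g072920) had -0.996 (adjusted p = 0.0239), just under the cut-off, and TPP2 (Solyc03g007290) had 1.40 with overlapping libraries (adjusted p = 0.0503). A DUF581 gene (Solyc05g051860), of the zinc finger family whose proteins bind SnRK1 in Arabidopsis, was higher by 1.07 (adjusted p = 0.0365); the first kind of libraries gave 0.51 and the second 1.63. It was not called under median-of-ratios scaling, at 0.91 (adjusted p = 0.145).

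Among genes of the kind that follow SnRK1 in Arabidopsis, 4 were on the list and all were called higher, against 5.31% of all genes tested. The study took its list from genes that differed in these same libraries, which largely fixed this count. Asparagine synthetase, SEN1, proline dehydrogenase and further bZIP genes were also sought as genes that follow SnRK1, and the list holds no entry for them. Their values were not examined. The bZIP transcription factor genes annotated as BZIP53 rose by 1.42 (Solyc01g100460) and 1.94 (Solyc03g043895) on the log2 scale, and BZIP44 (Solyc10g054010) by 1.22 (limma adjusted p = 0.00164, 0.000961 and 0.00729). RFS (Solyc02g086530), a raffinose synthase, was at 0.388 ± 0.196 FPKM under Torin2 and 0.0558 ± 0.0142 FPKM in mock-treated seedlings (SD, n = 4 each), with a log2 fold change of 1.55 (adjusted p = 0.0299). Its adjusted p was 0.0631 after removal of the length trend.

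**Figure D5:**
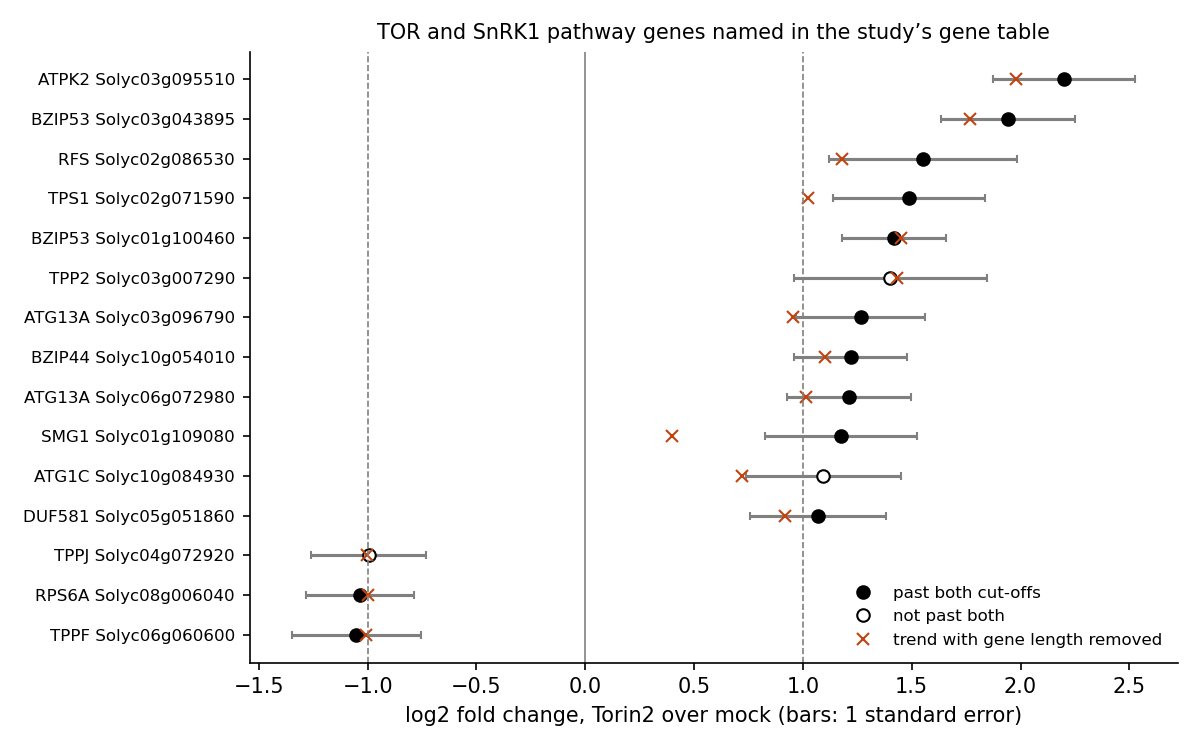
Log2 fold change (Torin2 over mock) of the 15 listed genes of TOR and SnRK1 signaling, with bars of 1 standard error, filled circles for genes past both cut-offs, crosses for the value after removal of the length trend and dashed lines at the fold change cut-offs. ATPK2 is highest at 2.20, the 3 genes below 0 lie close to -1, and SMG1 moves most with gene length, to 0.40.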

How the data were processed

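Seedling RNA was made into libraries with the VAHTS Universal V6 kit and sequenced as paired reads, which the authors aligned with HISAT2, using tomato genome build SL4.0. The submitters' processing notes also name fastp, FastQC, SAMtools, HTSeq, DESeq2 and DESeq, with no roles or versions. The authors deposited FPKM values, 1 column per library, not pooled; the annotation release and the gene lengths were not given in the sources used here. FPKM divides by depth and length, so that a few abundant genes or a bias with length can move the values of all others.

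Whole fragments were recovered from the deposited FPKM as the numbers that 1 factor per library and 1 whole length per gene give, for 25571 genes with a value above 0. Of the values, 99.9% came within 0.002 of a whole number, and the totals were 99.7% to 99.8% of the depth of 36989258 to 39868132 fragments. The chromosome is the number in the identifier, and no coordinates were used.

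Torin2 was compared with mock by limma 3.58.1 (R 4.3.3; eBayes with trend) on log2(FPKM + 0.1), for 22330 genes averaging 0.1 FPKM or more, with Benjamini-Hochberg adjustment over all of them. A gene was called where its adjusted p was below 0.05 and its log2 fold change beyond 1 in size, which are the study's cut-offs. Single values were tested by exact two-sided permutation, and 95% Poisson intervals were exact. The code was tested on simulated data. Python 3.11.15, numpy 2.4.6, pandas 2.3.3, scipy 1.17.1 and matplotlib 3.10.9 were used.

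Named were the 5 genes, the 15 signaling genes of the study's table, and, for each of the 5, the 3 nearest profiles, of which those without a gene name are given only for TOR. The members, lists and tests were chosen with earlier results of these data known. The settings varied were the pseudocount (1 or 0.01 FPKM), the filter (none or 1 FPKM), the scaling (quantile, TPM or median-of-ratios), other variance models, the replicate block, each library left out, and limma-voom on the recovered fragments. The limma-voom fit took its library sizes from median-of-ratios. Chosen after seeing the data were the kind of library as a covariate or split, and removal of the length trend by loess (span 0.3), alone and with the replicate block. The authors' own fold changes and p-values were not used. Protein and promoter sequences were not used here.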

Additional observations from a re-analysis of the deposited data

Results flagged for a closer look

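Among the 48 groups of 4 libraries examined for a single library apart from the others, 2 were past the critical value of Dixon's test, and chance gives about 1 in 20. For SMG1, Torin2 replicate 3 was at 0.750 FPKM and the other Torin2 libraries at 0.925 to 0.964 FPKM, a gap of 0.834 of the range on the log2 scale. For the share of Solyc02g067030 in both SnRK1 α genes, mock replicate 4 was at 23.2% and the other mock libraries at 28.4% to 28.8%, a gap of 0.926 of the range.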

How the results depend on the processing

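TOR kept a positive log2 fold change under all 24 alternatives, from 0.42 to 1.29. Of these, 22 had a test, and the values within each kind of libraries had none. TOR lost its call under 9 of the 22. It was 0.86 with a pseudocount of 1 FPKM, 0.98 with median-of-ratios, 1.15 with TPM (adjusted p = 0.0652) and 0.89 with quantile scaling, 0.42 with the length trend removed, alone or with the replicate block (adjusted p = 0.0692), and 1.03 to 1.29 with 1 library left out. RAPTOR1 was called at 1.02 with no filter, with no variance trend and with the kind of library as a covariate. With 1 library left out it was 0.88 to 1.18, the α subunits were 0.57 to 0.86 (Solyc02g067030) and 0.30 to 0.70 (Solyc03g115700), and SNF4 was -0.53 to 0.14. SNF4 turned positive without Torin2 replicate 1 (0.012) and without Torin2 replicate 3 (0.14), and it was 0.66 and -1.05 in the kinds of libraries. RAPTOR1 and SNF4 are below a filter at 1 FPKM, so that this alternative gave them no value. The cause of these changes was not tested.

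The number of the 5 genes called with limma was 0 with a pseudocount of 1 FPKM, with quantile, TPM or median-of-ratios scaling and with the length trend removed, alone or with the replicate block, against 4.86% to 7.97% of all genes called in these fits. In each of them 3 of the 5 genes had an unadjusted p under 0.05, against 22.3% to 38.2% of all genes. The number called was 2 with no filter, with no variance trend and with the kind of library as a covariate. In these fits 6.41% to 10.2% of all genes were called. With limma-voom the number was 1, against 8.34%, and with 1 library left out 0 to 1, against 5.16% to 9.78%. It was 0 without Torin2 replicate 4 (6.02% of all genes), mock replicate 3 (7.1%) and mock replicate 4 (5.16%). Of the 15 signaling genes, 12 were called in the main fit, where 8.32% of all genes were. With a pseudocount of 1 FPKM there were 7 (4.86% of all genes), and with 1 library left out 6 to 12 (5.16% to 9.78%).

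Over all genes, 642 were called higher with a pseudocount of 1 FPKM, 736 with quantile, 769 with TPM and 767 with median-of-ratios scaling, and 764 with the length trend removed and the replicate block, against 1186. With 1 library left out, 663 to 1531 were called higher and 490 to 793 lower. The number called lower was 444 with a pseudocount of 1 FPKM, 1012 with median-of-ratios scaling and 1067 with limma-voom, against 671.

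Within the first and second kinds of libraries, the log2 ratio of TOR to both α genes differed by 0.30 and 0.94, that of SNF4 to both α genes by 0.026 and -1.95, and the share of Solyc02g067030 by -2.66 and 8.84 percentage points. With 1 library left out these were 0.48 to 0.71, -1.27 to -0.60 and 0.25 to 4.88, and RAPTOR1 to TOR was 0.04 to 0.38.

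The deviations of same-numbered libraries correlated at -0.38, 0.38, 0.40 and -0.25. Every pair of a Torin2 and a mock library correlated positively within a kind and negatively between the kinds. These correlations follow the kinds and cannot tell whether the replicate numbers pair the libraries. With the replicate number as a block, TOR had an adjusted p of 0.0233, RAPTOR1 of 0.124, Solyc02g067030 of 0.110, Solyc03g115700 of 0.214 and SNF4 of 0.800, which changed no call, and 1235 genes were called higher and 674 lower.

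Depth limits RAPTOR1 and SNF4, with 4 to 46 fragments per library. It also limits listed genes such as RFS and TPS1, with 4 to 7 and 25 to 35 fragments per mock library. P-values rest on 4 libraries per treatment.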
